A study of Mus musculus with 8 samples.

Results

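The citrate cycle burns acetyl-CoA in the mitochondrial matrix and passes the released electrons to the respiratory chain. The 9 genes described here encode enzymes of that cycle: Cs, Idh3a, Idh3b, Idh3g, Idh2, Ogdh, Sucla2, Fh1 and Mdh2. They were chosen by symbol, with earlier results of these data known. Each was found among the 12393 genes with a probe set of a single gene symbol. Each is given by the probe set with the highest mean over the 8 arrays. The tested samples were 6 primary soft tissue sarcomas, an undifferentiated pleomorphic sarcoma model in mouse, of which 4 had the genotype Braf Ca/Ca; p53 Fl/Fl (numbered 1, 2, 3 and 5) and 2 had Braf Ca/+; p53 Fl/Fl (numbered 1 and 2). They were set against 2 normal muscles from a hind limb without a tumour, 1 from each genotype, so that both tissues carried the conditional Braf and p53 alleles. Tumours were started by an injected adenovirus that expresses Cre recombinase, so the recombined cells were those that the virus reached and not a lineage chosen by a promoter. The tissue field of the labels reads muscle for the sarcomas as well.

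Acetyl-CoA enters the cycle by joining oxaloacetate, and successive oxidations then regenerate oxaloacetate while NADH, FADH2 and a nucleoside triphosphate are made. Oxidative muscle fibres, heart and brown fat are rich in mitochondria and in these enzymes. In tumours the cycle also serves as a source of citrate, 2-oxoglutarate and oxaloacetate for biosynthesis.

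All 9 genes fell in the sarcomas. A total of 9 of 9 passed the test (limma, Benjamini-Hochberg adjusted p under 0.05), where 13.2% of all genes tested fell, 13.1% rose and 26.3% passed in either direction. In 9 of 9 all 6 sarcomas lay below both muscles, a pattern seen in 19% of all genes, and 7 of 9 were lower by at least 2-fold with the test passed, against 8.43% of all genes. The difference, sarcoma minus muscle, ran from -1.86 for Idh3a to -0.84 for Mdh2 on the log2 scale, with a median of -1.54 beside a median of 0.03 over all genes. As the 9 genes were chosen with earlier results known, the shares over all genes are a background and not a test of the list. Bulk RNA does not tell fewer cells of a type from less RNA per cell.

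Both muscles held muscle fibre RNA, and each also held markers of another tissue. The 15 muscle fibre markers all fell in the sarcomas, with a median difference of -4.52, and their mean level lay between 6.92 and 9.31 in the sarcomas and between 12.85 and 12.92 in the muscles. The Ca/Ca muscle carried Hmga2, a chromatin protein of embryonic and tumour cells, at 8.57, against 4.53 in the Ca/+ muscle, where the sarcomas had 10.13 to 11.60. The Ca/+ muscle carried Ucp1, the uncoupling protein of brown fat, at 10.48, against 4.59 in the Ca/Ca muscle, where the sarcomas had 3.71 to 8.10. Cidea, another gene of brown fat, read 11.22 in the Ca/+ muscle, against 6.90 in that of the Ca/Ca genotype. The mean of 7 adipocyte markers, Ucp1 and Cidea among them, was 11.20 in the Ca/+ muscle and 8.55 in the Ca/Ca muscle. It was 4.91 to 6.97 in the sarcomas, so both muscles stood above every sarcoma. Without the Ca/+ muscle the differences of the 9 genes ran from -1.76 for Ogdh to -0.58 for Idh2, with Mdh2 at -0.81. Without the Ca/Ca muscle they ran from -2.02 for Idh3a to -0.87 for Mdh2. Each of these fits leaves 1 muscle. Braf averaged 4.76 ± 0.21 in the 6 sarcomas and 4.56 ± 0.09 in the 2 muscles (SD), and the position of its probe set within the modified allele is not given in the sources used here.

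Start regions of 4 of the genes are shown because they hold a match to a motif of a regulator of mitochondrial genes whose own level is given further on. They come from RefSeq (GRCm38.p6), run 5′ to 3′ on the strand of the gene from 250 bases before the start site to 50 after it, and the capitals mark the match. Promoter entries matched 8 of the 9 genes, with 13 windows in all, 6 of them for Ogdh.
Idh3b, chr2:130284402-130284701, minus strand: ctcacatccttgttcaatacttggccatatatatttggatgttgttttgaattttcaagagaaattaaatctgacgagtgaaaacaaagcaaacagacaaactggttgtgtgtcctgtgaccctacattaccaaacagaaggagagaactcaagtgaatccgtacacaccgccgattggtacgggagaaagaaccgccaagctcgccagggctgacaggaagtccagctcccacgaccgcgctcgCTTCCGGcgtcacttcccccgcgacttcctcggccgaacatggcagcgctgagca
Idh3g, chrX:73786848-73787147, minus strand: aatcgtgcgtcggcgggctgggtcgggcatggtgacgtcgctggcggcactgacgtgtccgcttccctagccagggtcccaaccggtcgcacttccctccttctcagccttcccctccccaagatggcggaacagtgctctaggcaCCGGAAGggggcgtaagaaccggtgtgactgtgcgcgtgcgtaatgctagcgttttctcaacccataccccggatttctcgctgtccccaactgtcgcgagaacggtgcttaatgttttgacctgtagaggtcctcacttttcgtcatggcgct
Ogdh, chr11:6291920-6292219, plus strand: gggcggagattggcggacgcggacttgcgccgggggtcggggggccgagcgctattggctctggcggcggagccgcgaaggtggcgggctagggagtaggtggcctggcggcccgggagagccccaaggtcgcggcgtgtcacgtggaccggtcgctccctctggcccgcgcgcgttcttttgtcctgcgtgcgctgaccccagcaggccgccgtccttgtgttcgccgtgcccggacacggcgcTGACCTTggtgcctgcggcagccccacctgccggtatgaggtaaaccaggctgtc
Sucla2, chr14:73552536-73552835, plus strand: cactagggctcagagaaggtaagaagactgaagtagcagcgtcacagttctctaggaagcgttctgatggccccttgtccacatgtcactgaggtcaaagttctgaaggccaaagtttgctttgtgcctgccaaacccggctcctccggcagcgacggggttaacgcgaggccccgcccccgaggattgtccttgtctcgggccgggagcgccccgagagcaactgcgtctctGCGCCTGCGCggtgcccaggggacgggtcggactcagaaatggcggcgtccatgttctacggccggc
The ETS motif CCGGAAG, which GABPA binds, was found in Idh3b at position -5 on the strand opposite to the gene and in Idh3g at position -104 on the strand of the gene. The half-site AAGGTCA of the nuclear receptor ESRRA was found in 1 of the 6 Ogdh windows, at position -5 on the opposite strand. The NRF1 motif was found in Sucla2 at position -17 on the strand of the gene. Both strands were searched, and no match overlapped another. Of 32851 windows of 300 bases, 8.86% held the ETS motif, 4.72% the ESRRA half-site and 4.6% the NRF1 motif, against 2, 1 and 1 of the 13 windows of the matched genes. A match is a run of letters and not a measured binding site.

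The cycle opens with citrate synthase, encoded by Cs (chr10:128337727-128362482), which condenses acetyl-CoA with oxaloacetate. Cs had log2 levels of 9.16, 9.29, 9.01 and 9.49 in Ca/Ca sarcomas 1, 2, 3 and 5 and of 9.43 and 9.48 in Ca/+ sarcomas 1 and 2, against 10.96 in Ca/Ca muscle and 11.17 in Ca/+ muscle. The highest sarcoma lay 1.47 below the lower muscle, so the groups were far apart. Cs fell by 1.75 (SE 0.16, adjusted p = 0.000221), a level 3.37-fold lower in sarcomas, with a 95% interval of -2.13 to -1.38. Its other probe sets differed by -1.81 and -1.001.

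NAD-linked isocitrate dehydrogenase, which turns isocitrate into 2-oxoglutarate and is activated by ADP, is built from the catalytic subunit Idh3a and the subunits Idh3b and Idh3g. Idh3a (chr9:54586511-54604662) had 8.99, 8.98, 8.99 and 8.90 in Ca/Ca sarcomas 1, 2, 3 and 5 and 9.43 and 9.59 in Ca/+ sarcomas 1 and 2, against 10.85 in Ca/Ca muscle and 11.17 in Ca/+ muscle. The 4 Ca/Ca sarcomas were nearly level, the 2 Ca/+ sarcomas stood above them, and all 6 stayed below the muscles. Idh3a fell by 1.86 (SE 0.22, adjusted p = 0.000715), 3.63-fold lower in sarcomas and the largest fall among the 9 genes. Its other probe sets differed by -1.97 and -2.21.

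Idh3b (chr2:130279309-130284451), whose start region with an ETS match is shown above, had 9.53, 9.57, 9.67 and 9.69 in Ca/Ca sarcomas 1, 2, 3 and 5 and 9.86 and 9.68 in Ca/+ sarcomas 1 and 2. The muscles stood at 10.99 (Ca/Ca) and 11.30 (Ca/+). The sarcomas spread over 0.33, the narrowest range among the 9 genes, and did not reach the muscles. Idh3b fell by 1.47 on this probe set (SE 0.14, adjusted p = 0.000224), 2.78-fold lower in sarcomas. The second probe set of Idh3b did not show this. It read 9.29 to 9.64 in the sarcomas, against 8.68 in Ca/Ca muscle and 9.92 in Ca/+ muscle, with a difference of 0.15 (SE 0.28) that did not pass (adjusted p = 0.741). The sarcomas there lay between the 2 muscles, so the fall of Idh3b rests on the probe set with the higher mean.

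Idh3g (chrX:73778963-73786897), which also carries an ETS match, had 9.37, 9.61, 9.76 and 9.67 in Ca/Ca sarcomas 1, 2, 3 and 5 and 9.46 and 9.74 in Ca/+ sarcomas 1 and 2, against 10.86 in Ca/Ca muscle and 11.42 in Ca/+ muscle. The muscles differed from each other by 0.56, more than the range of 0.39 over the sarcomas, yet the highest sarcoma lay 1.10 below the lower muscle. Idh3g fell by 1.54 (SE 0.18, adjusted p = 0.000694), 2.90-fold lower in sarcomas, and its second probe set differed by -1.66. Within the 3-subunit enzyme the balance was compared per array as the log2 level of one subunit minus that of another. Idh3a minus Idh3b was -0.52 ± 0.25 in sarcomas and -0.13 ± 0.01 in muscles (SD, 6 and 2 arrays), and the groups overlapped (exact two-sided permutation p = 0.143, adjusted over 10 pairs 0.204). Idh3a minus Idh3g changed by -0.32 (exact permutation p = 0.25) and Idh3b minus Idh3g by 0.06 (exact permutation p = 0.679). The balance of Idh3b depended on its probe sets: with the probe sets of each gene averaged, Idh3a minus Idh3b changed by -1.35 and Idh3b minus Idh3g by 0.93 (exact permutation, adjusted p = 0.0595 for each).

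Idh2 (chr7:80094845-80118608), the NADP-linked mitochondrial enzyme, makes 2-oxoglutarate together with NADPH and can also run in reverse. It had 7.70, 7.56, 7.63 and 7.94 in Ca/Ca sarcomas 1, 2, 3 and 5 and 7.88 and 8.22 in Ca/+ sarcomas 1 and 2, against 8.40 in Ca/Ca muscle and 8.97 in Ca/+ muscle. Only 0.18 separated the highest sarcoma from the lower muscle, the narrowest gap among the 9 genes. Idh2 fell by 0.86 (SE 0.22, adjusted p = 0.0194), 1.82-fold lower in sarcomas. Without the Ca/+ muscle the difference was -0.58 and no longer passed (adjusted p = 0.218), and without the Ca/Ca muscle it was -1.15 (adjusted p = 0.0214). Idh2 also did not pass when arrays were centred on hybridization controls (-0.63, adjusted p = 0.218). Idh2 minus Idh3a was -1.32 ± 0.20 in sarcomas and -2.32 ± 0.18 in muscles, so Idh2 fell by less than Idh3a. All 6 sarcomas lay above both muscles in that measure, at the smallest p the 28 splits allow (exact permutation p = 0.0357), but not after adjustment over the 10 pairs (0.0893). Idh1, the cytosolic and peroxisomal counterpart, had a difference of -0.59 that did not pass (adjusted p = 0.0851), and Idh2 minus Idh1 changed by -0.27 (exact permutation p = 0.357).

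The step from 2-oxoglutarate to succinyl-CoA is carried out by a complex of Ogdh, its decarboxylase, with Dlst and Dld. Ogdh (chr11:6291597-6359094), the gene with the ESRRA half-site, had 8.27, 8.07, 7.48 and 8.65 in Ca/Ca sarcomas 1, 2, 3 and 5 and 8.28 and 8.59 in Ca/+ sarcomas 1 and 2, against 9.98 in Ca/Ca muscle and 10.01 in Ca/+ muscle. It had the widest range among sarcomas, 1.18, with Ca/Ca sarcoma 3 lowest and Ca/Ca sarcoma 5 highest, while the muscles differed by 0.04. Ogdh fell by 1.77 (SE 0.29, adjusted p = 0.00313), 3.42-fold lower in sarcomas. Its partner Dlst differed by -0.42 (95% interval -0.79 to -0.06) and did not pass (adjusted p = 0.088), though it passed under cyclic loess, ribosomal protein and housekeeping centring, with values down to -0.88. Dlst stood at 8.90 to 9.42 in the sarcomas, against 9.52 and 9.68 in the muscles. Ogdh minus Dlst was -0.96 ± 0.32 in sarcomas and 0.39 ± 0.08 in muscles without overlap (exact permutation p = 0.0357, adjusted over 10 pairs 0.0893). Dld, a subunit shared with pyruvate dehydrogenase, fell by 1.01 (adjusted p = 0.00655), and without the Ca/+ muscle it no longer passed (-0.83, adjusted p = 0.089).

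Succinyl-CoA ligase makes succinate and a nucleoside triphosphate. Sucla2 encodes its ADP-forming subunit, Suclg2 the GDP-forming one, and both pair with Suclg1. Sucla2 (chr14:73552786-73596144), with the NRF1 match, had 8.75, 8.65, 8.89 and 8.90 in Ca/Ca sarcomas 1, 2, 3 and 5 and 9.12 and 8.56 in Ca/+ sarcomas 1 and 2, against 10.22 in Ca/Ca muscle and 10.62 in Ca/+ muscle. The Ca/+ sarcomas held both the highest and the lowest tumour value. Sucla2 fell by 1.60 (SE 0.18, adjusted p = 0.000573), 3.04-fold lower in sarcomas, and Suclg1 fell by 1.41 (adjusted p = 0.000357). Suclg2 differed by -0.31 (95% interval -0.90 to 0.27) and did not pass (adjusted p = 0.422). The Sucla2 minus Suclg2 difference was 1.97 ± 0.41 in sarcomas and 3.26 ± 0.15 in muscles without overlap (exact permutation p = 0.0357, adjusted 0.0893), while Sucla2 minus Suclg1 changed by -0.20 (exact permutation p = 0.143).

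Fumarase, encoded by Fh1 (chr1:175601378-175625635), hydrates the fumarate that succinate dehydrogenase supplies. Fh1 had 9.55, 9.98, 9.93 and 9.58 in Ca/Ca sarcomas 1, 2, 3 and 5 and 9.79 and 9.76 in Ca/+ sarcomas 1 and 2, against 10.87 in Ca/Ca muscle and 10.99 in Ca/+ muscle. The 2 Ca/+ values fell inside the range of the Ca/Ca ones, and all stayed 0.89 or more below the muscles. Fh1 fell by 1.16 (SE 0.15, adjusted p = 0.00113), 2.24-fold lower in sarcomas. The 4 succinate dehydrogenase genes also fell: Sdha, the flavoprotein, by 1.90 (SE 0.14, adjusted p = 6.58e-05), Sdhc by 1.16, Sdhb by 0.99 and Sdhd by 0.75. Fh1 minus Sdha was 0.65 ± 0.13 in sarcomas and -0.08 ± 0.08 in muscles without overlap (exact permutation p = 0.0357, adjusted 0.0893), a change of 0.74 that was 0.46 with averaged probe sets.

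Mitochondrial malate dehydrogenase, encoded by Mdh2 (chr5:135778649-135790386), regenerates oxaloacetate and takes part in the malate-aspartate shuttle with the cytosolic Mdh1. Mdh2 had 10.74, 10.89, 10.75 and 11.13 in Ca/Ca sarcomas 1, 2, 3 and 5 and 11.01 and 11.05 in Ca/+ sarcomas 1 and 2, against 11.73 in Ca/Ca muscle and 11.80 in Ca/+ muscle. The gap between the groups was 0.60. Mdh2 fell by 0.84 (SE 0.14, adjusted p = 0.00409), 1.79-fold lower in sarcomas and the smallest fall of the 9, and its other probe set gave -0.84 as well. Centred on hybridization controls, Mdh2 did not pass (-0.60, adjusted p = 0.178). Mdh1 fell by 1.29 (adjusted p = 0.00073). Mdh2 minus Mdh1 was 1.03 ± 0.24 in sarcomas and 0.58 ± 0.08 in muscles without overlap (exact permutation p = 0.0714, adjusted 0.143), but the averaged probe sets gave a change of -0.02 in place of 0.45. None of the 10 pairs passed after adjustment. The smallest unadjusted p that 6 against 2 arrays can give is 0.0357 (exact permutation). Pairs at that p had an adjusted p of 0.0893. Over 10 pairs, a pass would need most of them to reach that smallest p, so the failure says little about a single pair.

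**Figure D1:**
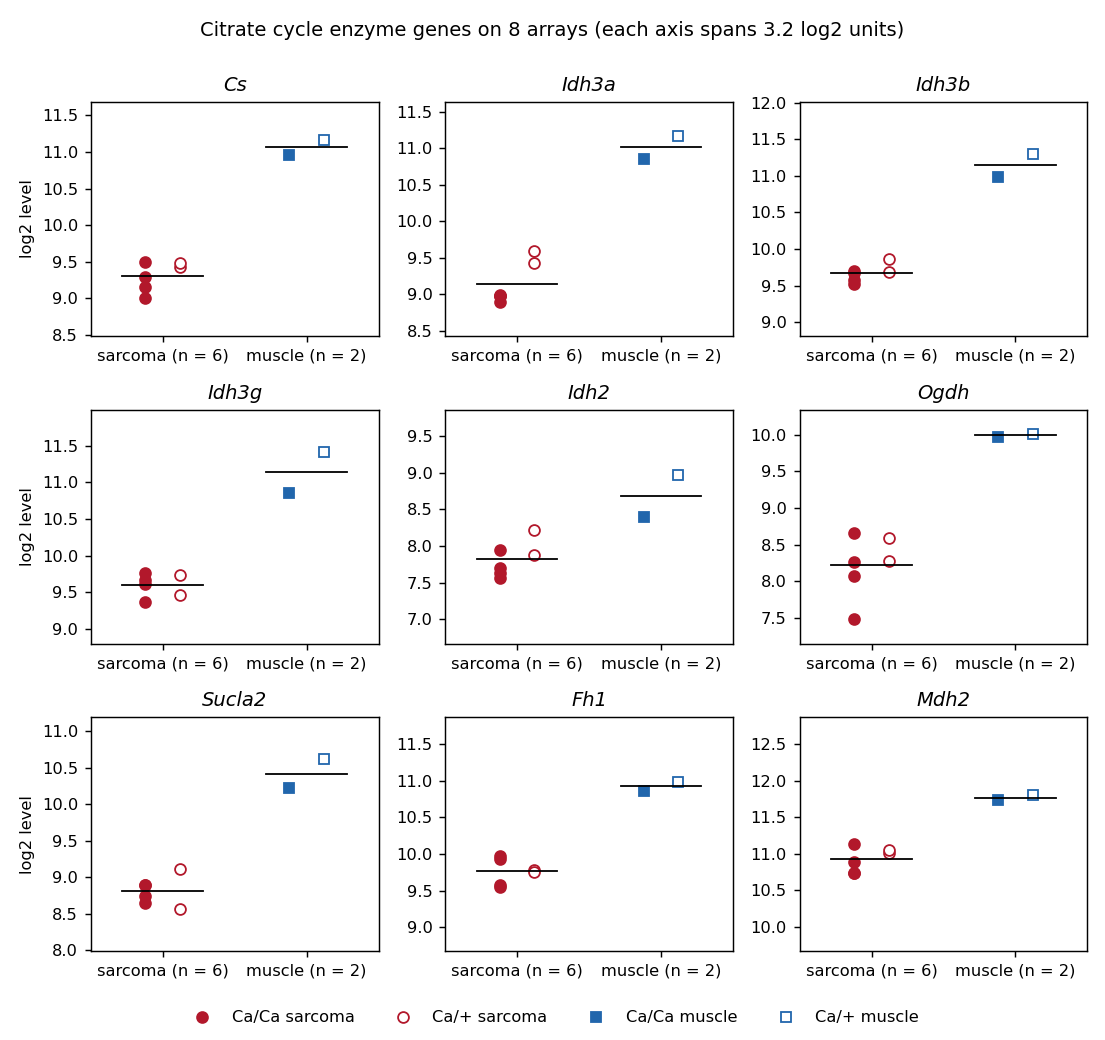
Log2 level of each of the 9 citrate cycle genes, a panel per gene, on the 8 arrays, with sarcomas (circles) left of muscles (squares), Ca/Ca arrays filled, Ca/+ arrays open and a line at each mean. In 9 of 9 genes all 6 sarcomas lie below both muscles, with the narrowest gap for Idh2 (0.18) and the widest for Cs (1.47).

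The rest of the cycle moved the same way to differing extents. Of 8 other measured genes of the cycle, 6 fell and 2 did not pass, with a median difference of -0.999. Those that fell were Sdha, Suclg1, Sdhc, Dld, Sdhb and Sdhd, and those that did not pass were Dlst and Suclg2. All 6 sarcomas lay below both muscles in 7 of the 8. Centred on hybridization controls, 2 of the 8 fell, with a median of -0.76, and centred on housekeeping genes 8 of the 8 fell, with a median of -1.46. The genes used for centring were themselves higher in the sarcomas before it. Of 10 housekeeping genes 4 rose and 0 fell (median 0.36), and of 13 ribosomal protein genes 5 rose and 0 fell (median 0.30). Centring on either list therefore moves all differences down.

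Genes that feed and drain the cycle included larger changes than the cycle itself. Of 8 measured genes for pyruvate entry, 6 fell, 1 rose and 1 did not pass, with a median of -1.56. Pdk2, a kinase that switches pyruvate dehydrogenase off, stood at 4.98 ± 0.38 in sarcomas and 9.35 ± 0.01 in muscles (SD, 6 and 2 arrays), a difference of -4.37 (adjusted p = 2.23e-05). Pdk4, another such kinase that fasting induces, fell by 3.71 (adjusted p = 0.00417), and Mpc1, a subunit of the mitochondrial pyruvate carrier, fell by 2.73 (adjusted p = 0.000421). Pdk3 went the other way, at 7.41 ± 0.35 in sarcomas and 6.17 ± 0.40 in muscles, a rise of 1.24 (adjusted p = 0.0113) that did not hold without the Ca/+ muscle (0.95, adjusted p = 0.14) or under ribosomal protein centring.

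Among 21 measured enzymes of the cytosol and of side branches, 12 fell, 2 rose and 7 did not pass, with a median of -1.20. Pcx, pyruvate carboxylase, which refills oxaloacetate, had 5.34, 5.52, 5.22 and 5.17 in Ca/Ca sarcomas 1, 2, 3 and 5 and 5.79 and 5.23 in Ca/+ sarcomas 1 and 2, against 9.11 in Ca/Ca muscle and 9.33 in Ca/+ muscle. It fell by 3.84 (SE 0.18, adjusted p = 6.78e-06), 14.3-fold lower in sarcomas, with every tumour far below both muscles. Pck1, the cytosolic PEP carboxykinase, fell by 5.31 (adjusted p = 0.00333) and Me1, the cytosolic malic enzyme, by 2.68 (adjusted p = 0.00539). Both lost the call without the Ca/+ muscle, with Pck1 at -4.33 (adjusted p = 0.0506) and Me1 at -2.62 (adjusted p = 0.0573).

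**Figure D2:**
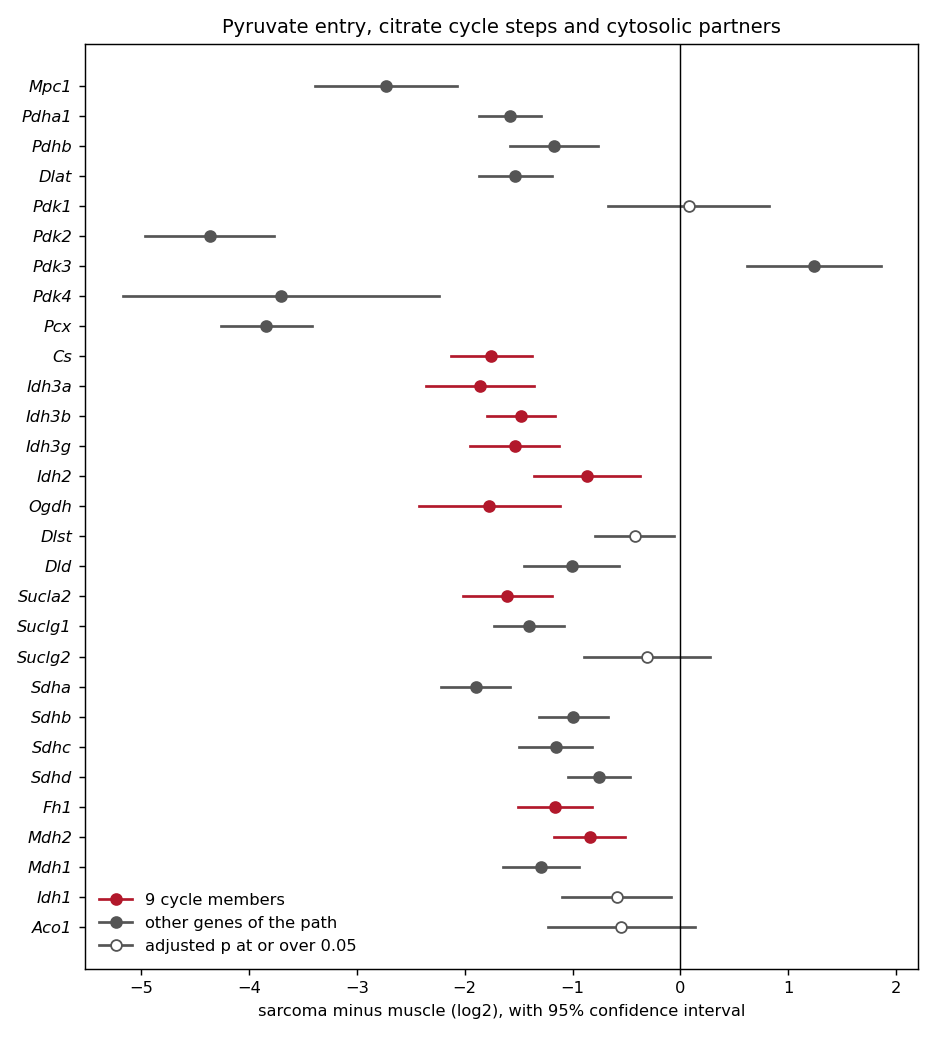
Sarcoma minus muscle difference (log2, limma) with its 95% confidence interval for genes in the order of the pathway, from pyruvate entry through the cycle to cytosolic partners, with the 9 genes described here in red, other genes in grey and open points where the adjusted p did not pass. The 9 genes lie between -1.86 and -0.84, Pdk2 (-4.37) and Pcx (-3.84) lie far below them, and Pdk3 (1.24) lies above 0.

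The 2 of these 21 enzymes that rose in the sarcomas were Pck2 and Me2. Pck2, the mitochondrial PEP carboxykinase, stood at 7.79 ± 0.28 in sarcomas and 6.49 ± 0.29 in muscles, a rise of 1.30 (adjusted p = 0.00369). Me2, the NAD-linked mitochondrial malic enzyme, had 7.44 ± 0.33 in sarcomas and 6.09 ± 0.34 in muscles, a rise of 1.35 (adjusted p = 0.00581). All sarcomas lay above both muscles for each, as for 20% of all genes. Without the Ca/+ muscle the values were 1.10 for Pck2 (adjusted p = 0.0557) and 1.11 for Me2 (adjusted p = 0.0809).

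Of 8 measured metabolite carriers, 4 fell, 1 rose and 3 did not pass, with a median of -0.54. Slc25a4, the ADP/ATP carrier of muscle, fell by 1.71 (adjusted p = 0.00109), Slc25a11, the 2-oxoglutarate/malate carrier, by 0.92 (adjusted p = 0.00571), and Slc25a20, the carnitine carrier, by 0.77 (adjusted p = 0.012). Slc25a13, an aspartate/glutamate carrier, rose by 1.38 (adjusted p = 0.0398), a call that held in 13 of 23 alternatives. It was lost under cyclic loess, ribosomal protein and housekeeping centring, where 0 carriers rose, and without Ca/Ca sarcoma 2, either Ca/+ sarcoma or either muscle. Without the Ca/+ muscle the last 3 no longer passed, with adjusted p of 0.052 for Slc25a11, 0.147 for Slc25a20 and 0.251 for Slc25a13.

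Other mitochondrial genes were also counted. Of 16 respiratory chain subunits 15 fell and 1 did not pass, with a median of -0.99, and 5 fell when arrays were centred on hybridization controls. Ndufs1 of complex I fell by 1.64 (adjusted p = 0.000288), Uqcrfs1 of complex III by 1.41 (adjusted p = 0.000813) and Uqcrc2 of complex III by 1.25 (adjusted p = 0.000799). Of 18 genes for mitochondrial structure and import, 5 fell and 13 did not pass, with a median of -0.13, and both depended on the scaling. Under ribosomal protein centring 6 fell (median -0.48), under housekeeping centring 10 fell (median -0.58), and under hybridization control centring 2 fell and 1 rose (median 0.11). Those with the largest falls were the outer membrane channels Vdac1, by 1.27 (adjusted p = 0.000492), and Vdac3, by 1.10 (adjusted p = 0.00649), and the import subunit Timm23, by 0.87 (adjusted p = 0.0114). Vdac3 and Timm23 did not pass without the Ca/+ muscle (adjusted p = 0.0606 and 0.0861). With each array centred on the mean of this structure and import list, 9 of the 9 citrate cycle genes fell, by 0.65 to 1.67. Of all 12393 genes, 1204 fell and 2492 rose under that centring, with a median of 0.22. Whether this list tracks the content of mitochondria was not tested.

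Of 16 measured regulators of mitochondrial genes, 4 fell, 2 rose and 10 did not pass, with a median of -0.32. These counts depended on the scaling: 9 fell and 0 rose under ribosomal protein centring (median -0.67) and under housekeeping centring (median -0.78), and 2 fell and 1 rose under hybridization control centring (median -0.08). Ppargc1a, the coactivator that drives mitochondrial gene expression in muscle, stood at 3.41 ± 0.15 in sarcomas, near the bottom of the array's scale, and at 5.34 ± 0.19 in muscles, a fall of 1.92 (adjusted p = 8.15e-05). Ppargc1b, its relative, fell by 1.84 (adjusted p = 0.0111). Esrra, the receptor whose half-site stands in the Ogdh window, fell by 0.99 (adjusted p = 0.00848). Nrf1, whose motif stands in the Sucla2 window, rose by 0.59 (adjusted p = 0.00917), a rise that did not pass under ribosomal protein, housekeeping or hybridization control centring. Myc, a growth factor-induced transcription factor, rose by 1.24 (adjusted p = 0.0211) and did not pass under ribosomal protein or housekeeping centring. Gabpa, which binds the ETS motif found in the Idh3b and Idh3g windows, had 8.05 ± 0.21 in sarcomas and 7.77 ± 0.36 in muscles, a difference of 0.29 that did not pass (adjusted p = 0.33). Apart from Ppargc1a these called genes lost their call without the Ca/+ muscle, with adjusted p of 0.127 for Ppargc1b, 0.0968 for Esrra, 0.0825 for Nrf1 and 0.213 for Myc.

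**Figure D3:**
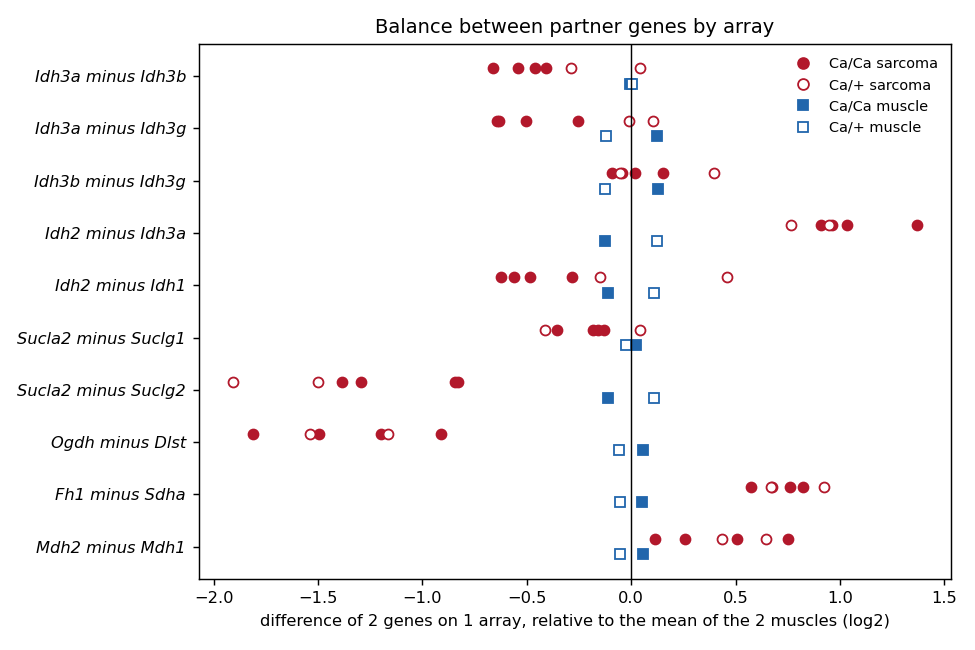
For each of 10 gene pairs, the log2 level of the first gene minus that of the second on each array, relative to the mean of the 2 muscles (horizontal axis, log2), with circles for sarcomas above squares for muscles. For Ogdh minus Dlst the sarcomas lie 1.35 below the muscles on average, without overlap. None of the 10 pairs passed after adjustment, and the share of all gene pairs without overlap was not counted.

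The order of the 6 sarcomas differed between the cycle genes and the muscle fibre markers. Ca/+ sarcoma 1 had the lowest mean over the fibre markers, 6.92. Its mean over the 9 cycle genes, 9.36, was above that of 4 of the other 5 sarcomas. Ca/Ca sarcoma 2 had the highest mean over the fibre markers, 9.31, and a cycle mean of 9.18. The cycle means of the 6 sarcomas ran from 9.12 in Ca/Ca sarcoma 1 to 9.41 in Ca/+ sarcoma 2, against 10.54 in Ca/Ca muscle and 10.83 in Ca/+ muscle. Ca/Ca sarcoma 1 held the lowest tumour value for 4 of the 9 genes and Ca/Ca sarcoma 5 the highest for 3. Of the other marker lists, 7 of 9 endothelial genes fell (means of 6.06 to 6.95 in sarcomas and 8.07 to 8.29 in muscles), 6 of 7 adipocyte genes fell, and 1 of 3 Schwann cell genes fell. Of 10 fibroblast genes 1 rose, and of 11 macrophage genes 1 rose (means of 9.11 to 10.45 in sarcomas and 8.47 to 9.82 in muscles). The part of muscle fibres, fat and vessels in the falls of the cycle genes was not tested.

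**Figure D4:**
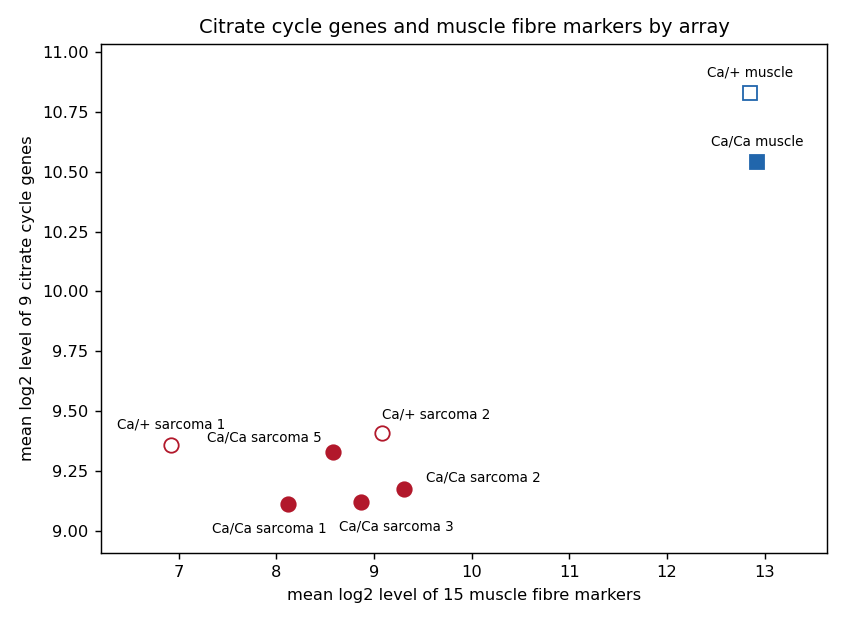
Mean log2 level of the 9 citrate cycle genes (vertical axis) against the mean of the 15 muscle fibre markers (horizontal axis), 1 point per array, sarcomas as circles and muscles as squares. The sarcomas spread from 6.92 to 9.31 in fibre markers and from 9.12 to 9.41 in cycle genes. Both muscles stand apart at the upper right.

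The genes most like the cycle over all 8 arrays, by Pearson's r with the mean of the 9 centred genes, were Ndufs1 (0.996), Crat (0.994), Ndufv1 (0.993), Ndufs7 (0.992), Arih2 (0.991), Lrrc46 (0.990), Hadha (0.988) and Podxl (0.988). Ndufs1, Ndufv1 and Ndufs7 are subunits of complex I, Crat is carnitine acetyltransferase and Hadha is a subunit of the trifunctional enzyme of fatty acid oxidation. These values are a description over 8 arrays that fall into 2 tissues. Over the 6 sarcomas alone the most alike were Srfbp1 (0.995), Pde8a (0.992), Xpo5 (0.981), Ext2 (0.981), Tmeff2 (0.977), Tmod2 (0.970), Poldip2 (0.969) and Tbc1d23 (0.968). They were picked as the highest among all genes over only 6 arrays, where picking alone can give values this high. A shared control with the cycle genes was not tested.

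The copy number of the BrafCa allele was compared among the sarcomas, 4 Ca/Ca against 2 Ca/+. No cycle gene passed the test (limma, adjusted p), as for 0% of all genes, and 1 of the 9 had an unadjusted p under 0.05, beside 7.84% of all genes. That gene was Idh3a, at 8.96 ± 0.04 in Ca/Ca sarcomas (SD, n = 4) and 9.51 ± 0.11 in Ca/+ sarcomas (SD, n = 2), a difference of -0.55 (SE 0.12, 95% interval -0.85 to -0.25, adjusted p = 0.579). It was also the 1 gene of the 9 in which all Ca/Ca sarcomas lay below both Ca/+ sarcomas, a pattern of 11.3% of all genes, and 0 of the 9 showed the opposite pattern, beside 9.68% of all genes. The dimmest of its probe sets kept that order, at 4.69, 4.98, 4.49 and 5.04 in Ca/Ca sarcomas 1, 2, 3 and 5 and 5.21 and 5.13 in Ca/+ sarcomas 1 and 2. The third probe set overlapped, at 6.07, 6.29, 6.02 and 6.11 in the Ca/Ca sarcomas and 6.23 and 6.33 in the Ca/+ sarcomas.

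The other cycle genes overlapped between the genotypes. Their differences were -0.34 for Idh2, -0.32 for Ogdh, -0.22 for Cs, -0.16 for Idh3b, -0.15 for Mdh2, -0.04 for Sucla2, -0.01 for Fh1 and 0.01 for Idh3g, with adjusted p from 0.677 to 0.996. The signs for Fh1, Sucla2, Idh3g, Mdh2 and Idh3b turned under some scalings. The intervals were wide, for Ogdh from -1.10 to 0.47 and for Idh2 from -0.76 to 0.08. Suclg2, the GDP-forming partner, stood at 6.62 ± 0.17 in Ca/Ca sarcomas (SD, n = 4) and 7.28 ± 0.11 in Ca/+ sarcomas (SD, n = 2), a difference of -0.66 that did not pass (adjusted p = 0.579). The difference between sarcoma and muscle was not shown to depend on genotype: 0 of 9 genes passed the interaction (limma, beside 0.00807% of all genes), and 0 of 9 had an unadjusted p under 0.05, beside 7.22% of all genes. Without a test, the Ca/Ca muscle minus Ca/+ muscle differences of the 9 genes ran from -0.57 for Idh2 to -0.04 for Ogdh. Each genotype had a lone muscle array, and the share of all genes that were lower in the Ca/Ca muscle was not counted. The Ca/+ array also read higher for the brown fat genes Ucp1 (10.48 against 4.59) and Cidea (11.22 against 6.90). Hmga2 was higher in the Ca/Ca array (8.57 against 4.53). Whether the lower cycle genes go with genotype or with other tissue in these samples was not tested.

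**Figure D5:**
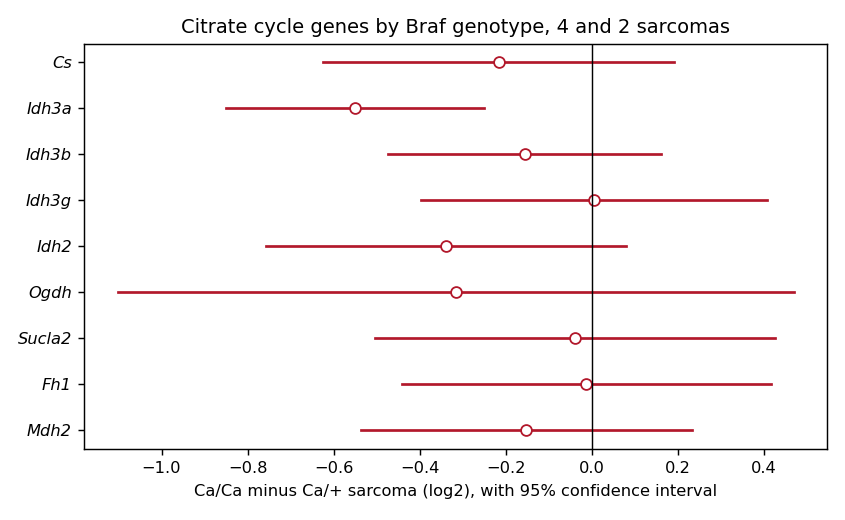
Ca/Ca minus Ca/+ sarcoma difference (log2, limma) with its 95% interval for each of the 9 genes, over 4 and 2 sarcomas. The interval excludes 0 for Idh3a alone (-0.85 to -0.25), and its adjusted p of 0.579 does not pass.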

How the data were processed

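Total RNA was hybridised to 8 Affymetrix mouse arrays. The authors deposited a log2 level for each probe set, made with RMA (background correction, quantile normalization and summary of probes), per the submitters' processing notes, with no version given. Whether the 8 arrays were processed together, and any batch or scan date, is not given in the sources used here. Array medians ran from 5.79 to 5.90. Values that share 1 distribution do not measure total RNA content, and 8 arrays limit the precision.

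The table held 22690 probe sets. Of these 64 were controls, 20380 had 1 gene symbol in the platform annotation, 691 had several, and 1555 were not listed and stayed unnamed. The probe set with the highest mean over the arrays was kept per gene, giving 12393 genes. Columns of other samples numbered 0, and no array copied another, with at most 32 equal values between a pair.

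Groups came from the sample titles. No label ties each array to an animal of its own. The p-values reflect array-to-array spread that could be technical. Sarcoma against muscle (8 arrays), Ca/Ca against Ca/+ sarcoma (6 arrays) and their interaction (4 residual degrees of freedom, with each lone muscle assumed to vary like the sarcomas) were fitted with limma 3.58.1 under R 4.3.3 (lmFit, then eBayes) and adjusted by Benjamini-Hochberg over all genes, threshold 0.05. Every adjusted p given for a gene comes from such a fit, repeated on the changed values or arrays where an alternative setting is named. Gene pairs were compared by exact two-sided permutation over 28 splits, adjusted over 10 pairs. The procedure was tested on simulated data. Plots used matplotlib 3.10.9 under Python 3.11.15.

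The 9 genes and the lists (16 lists, with 182 of 215 symbols measured) were chosen with earlier results of these data known. The genes named were the 9, all other measured cycle genes, up to 3 rises and 3 falls past the threshold in each metabolic or regulator list, the partners of the pairs, and the 8 genes most correlated with the 9 over all arrays and over the sarcomas. Ucp1, Cidea, Hmga2, Gabpa and Braf were named outside this rule after their values were seen. Coordinates and start regions are RefSeq's on GRCm38.p6. Alternatives covered probe set choice, centring, normalization, array weights and left-out arrays. Deviations of same-numbered sarcomas from their genotype means had r = -0.19 for number 1 and 0.29 for number 2. With 2 Ca/+ sarcomas these deviations mirror each other, so the r cannot tell whether the numbers are pairs. The numbers were not used as pairs in the main test.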

Additional observations from a re-analysis of the deposited data

How the results depend on the processing

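Of 214 alternative values for the 9 genes in sarcoma against muscle, 200 kept their direction and call, 12 kept only the direction and 2 reversed, both being the second probe set of Idh3b (0.15). All 9 genes passed under cyclic loess and under ribosomal protein, housekeeping and mitochondrial structure centring, and 7 passed under hybridization control centring, where Idh2 (-0.63, adjusted p = 0.218) and Mdh2 (-0.60, adjusted p = 0.178) did not. The median over all genes was -0.32 under ribosomal protein, -0.43 under housekeeping, 0.26 under hybridization control and 0.22 under mitochondrial structure centring, where the median of the 9 genes was -1.89, -1.997, -1.30 and -1.35. The share of calls that were lower was 50.1% as reported, 61.3% under cyclic loess, 85.7%, 87.7%, 36.8% and 32.6% under those 4 centrings. With Ca/Ca arrays only, 601 genes and 5 of the 9 passed, and with Ca/+ arrays only 1287 genes and 4 of the 9, in place of 3256 genes and 9 (fewer arrays each). Leaving out 1 array gave 1195 (without the Ca/+ muscle) to 3451 genes and 8 to 9 of the 9. The genes higher in sarcomas numbered 1626 as reported, 557 under ribosomal protein, 589 under housekeeping and 2492 under mitochondrial structure centring, 91 with Ca/Ca arrays only and 592 with Ca/+ arrays only, and 372 to 1772 with 1 array left out.

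For Ca/Ca against Ca/+ sarcomas, 172 of 196 values kept their direction, 24 reversed, and none passed. Reversed values were 0.026 (array median centring), 0.043 (cyclic loess), 0.14 (housekeeping), 0.16 (mitochondrial structure) and 0.055 (array weights) for Fh1, 0.033 (cyclic loess), 0.11 (housekeeping) and 0.13 (mitochondrial structure) for Sucla2, and -0.12 (ribosomal protein), -0.20 (hybridization control) and -0.015 (array weights) for Idh3g. Mdh2 gave 0.00046 (housekeeping) and 0.023 (mitochondrial structure), and Idh3b 0.019 (mitochondrial structure). Leaving out 1 sarcoma gave -0.085 to 0.056 for Fh1, -0.32 to 0.24 for Sucla2 and -0.13 to 0.14 for Idh3g. Over all genes, 1 gene passed under hybridization control centring, and 0 to 1 with 1 sarcoma left out (1 without Ca/+ sarcoma 1). Between the sarcomas numbered 1 and 2, which share only a number, Idh3g gave -0.11 and 0 of the 9 genes passed with the replicate block, as without it, and Idh3a gave -0.53 (adjusted p = 0.706) with the block. With averaged probe sets, Mdh2 minus Mdh1 turned to -0.024, Idh3a minus Idh3b went to -1.35 in place of -0.39, Idh3b minus Idh3g to 0.93 in place of 0.06 and Fh1 minus Sdha to 0.46 in place of 0.74, and none of the pairs passed after adjustment. With 1 array left out, Idh3b minus Idh3g ran from -0.064 to 0.19. The cause of these changes was not tested.

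With 2 muscles and 6 tumours, a difference in a single gene has a wide interval, and values near the bottom of the array's scale, such as Ppargc1a and Pck1 in sarcomas, have no certain size.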

Other observations

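The 9 cycle genes varied little together among the 6 sarcomas. Of their 36 pairs 25 had a positive Pearson r, with a median of 0.20, and the range went from -0.67 for Ogdh with Fh1 to 0.95 for Cs with Mdh2 (a description over 6 arrays). Cs, Mdh2, Ogdh and Idh2 were the closest, with r of 0.89 for Cs with Ogdh, 0.78 for Ogdh with Mdh2 and 0.75 for Cs with Idh2. Relative to the sarcoma mean, Ca/Ca sarcoma 5 held 7, Ca/+ sarcoma 1 held 8 and Ca/+ sarcoma 2 held 7 of the 9 genes above it, against 1, 2 and 4 in Ca/Ca sarcomas 1, 2 and 3.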
